A study of Mus musculus with 18 samples.

Results

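The genes described here carry the signal of follicle-stimulating hormone (FSH) from its receptor to the nucleus. They are the receptor gene Fshr, the stimulatory G protein alpha subunit gene Gnas, the protein kinase A (PKA) subunit genes Prkaca, Prkar1a and Prkar2b, the cyclic AMP (cAMP) phosphodiesterase genes Pde4a, Pde4b and Pde4d, and the transcription factor genes Crem and Creb1. A probe set, the group of short probes that reports 1 transcript on the array, was taken where its annotation gave exactly 1 symbol and that symbol was on this list. This gave 18 of the 22626 probe sets tested and 8 of the 10 genes, out of 12393 genes with a probe set of their own. Prkar2b and Pde4d were not analysed here. Every probe set of the 8 genes is reported, and the one with the highest mean over all arrays stands for its gene.

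RNA was measured in whole testes of 18 male hypogonadal (hpg) mice aged 10 weeks, 1 array a mouse. The hpg mutation leaves mice without gonadotrophin-releasing hormone, so that they have very little FSH or luteinising hormone of their own. Mice in the FSH groups received subcutaneous recombinant FSH (Gonal F) in PBS, 8 IU every 12 h, over 12 h (4 mice), 24 h (3 mice) or 72 h (4 mice), and were killed 1 h after the final dose. The controls were 7 untreated hpg males of matched age, for which no vehicle injection is described, so the hormone and the injections cannot be told apart. All groups, controls included, carry the hpg defect and lived without normal gonadotrophin exposure until the experiment. A whole testis holds Sertoli, Leydig, peritubular, vascular, immune and germ cells, and each value below is a level over all of them.

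In the testis the FSH receptor is made by Sertoli cells, which form the wall of the seminiferous epithelium and nurse the germ cells. The bound receptor activates the stimulatory G protein, adenylyl cyclase makes cAMP, and cAMP releases the catalytic subunits of PKA from the regulatory subunits that hold them inactive. PKA then phosphorylates CREB and its relatives, which bind the cAMP response element in promoters, while phosphodiesterases of the PDE4 family break cAMP down and are known to limit the response to FSH in Sertoli cells.

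The 3 genes whose transcripts changed are Fshr, Prkaca and Pde4b, and a promoter of each is shown because the cAMP response element and the E-box are the motifs through which cAMP signalling and the Fshr promoter are best known to be regulated. Each is the 250 bases before an annotated transcript start, from RefSeq on build GRCm38.p6, 5′ to 3′ on the gene's own strand. Capitals mark the half-site of the cAMP response element, TGACG on one strand or CGTCA on the other, and the E-box CACGTG. The windows lie at chr17:89200676-89200925 on the minus strand for Fshr, at chr8:83972728-83972977 on the plus strand for Prkaca and at chr4:102421305-102421554 on the plus strand for Pde4b.

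Fshr: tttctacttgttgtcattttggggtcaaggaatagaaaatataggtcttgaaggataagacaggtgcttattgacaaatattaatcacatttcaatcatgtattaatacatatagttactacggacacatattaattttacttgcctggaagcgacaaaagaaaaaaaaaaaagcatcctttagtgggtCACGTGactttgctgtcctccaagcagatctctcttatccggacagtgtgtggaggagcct
Prkaca: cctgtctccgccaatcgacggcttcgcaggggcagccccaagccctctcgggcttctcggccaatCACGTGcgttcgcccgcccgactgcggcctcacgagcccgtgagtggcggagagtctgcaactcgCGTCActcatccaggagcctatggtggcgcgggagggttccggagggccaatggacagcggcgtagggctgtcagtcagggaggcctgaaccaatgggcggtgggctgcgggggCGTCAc
Pde4b: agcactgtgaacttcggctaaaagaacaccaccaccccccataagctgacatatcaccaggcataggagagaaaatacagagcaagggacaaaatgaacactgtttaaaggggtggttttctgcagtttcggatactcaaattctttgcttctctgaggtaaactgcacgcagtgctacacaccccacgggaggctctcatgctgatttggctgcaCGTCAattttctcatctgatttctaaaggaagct

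The Fshr window holds the E-box, which begins 61 bases before the transcript start, and no half-site. The Prkaca window holds half-sites beginning 120 and 6 bases before the start and an E-box 185 bases before it, and it is shown out of 2 such windows of Prkaca because the other holds neither. The Pde4b window holds a half-site 34 bases before the start, and it is shown out of 4 such windows of Pde4b because the others hold none. Of the 21 such windows of 7 measured genes, 9 windows of 5 genes held a half-site on either strand, and 17.8% of all 32851 mouse windows of this length held it. Windows of a gene can overlap, and a window pair of Gnas and one of Prkar1a each count the same half-site again, so the count of windows cannot be read against that share. The E-box CACGTG was in 3 windows of 3 genes, against 6.02% of all windows. The full element TGACGTCA, which contains the half-site on both strands, was in 1 window, of Prkar1a, against 1.55% of all windows. These matches are descriptions of the letters in the windows and not evidence of binding.

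The arrays fell into sets that the labels do not name. The Dap spike-in control, a bacterial RNA added during preparation, read 8.39 to 9.28 log2 units on 12 arrays (12 h, 72 h and controls 4 to 7) and 2.86 to 3.60 on the other 6 (24 h and controls 1 to 3). The 18S ribosomal RNA probes read 3.35 to 3.70 where the spike was present and 9.07 to 11.69 where it was not. Each FSH time was therefore set against the controls of its own set, 12 h and 72 h against controls 4 to 7 and 24 h against controls 1 to 3. The actin 3′ minus 5′ signal, a sign of RNA integrity that grows as RNA breaks, was 1.22 to 1.63 at 12 h and 1.33 to 1.48 at 72 h, against 1.36 to 1.82 in controls 4 to 7, and 0.82 to 1.08 at 24 h, against 0.90 to 1.10 in controls 1 to 3. Control 6 stood apart as well. On its array 8 of 9 measured spermatid transcripts, among them Prm1 and Prm2, which package sperm DNA, read 7.68 to 12.30, against 2.39 to 4.49 on the other 17 arrays, although spermatogenesis in hpg testes is known to stop largely before that stage. The 12 h and 72 h calls of the members and the counts over most lists are given with and without this control. Single genes other than members are given with it, and without it only where stated.

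Of the 8 genes, Prkaca and Pde4b rose and Fshr fell at 12 h (3 of 8 genes called, against 6.28% of all genes, of which 3.52% rose and 2.76% fell). At 24 h Fshr was the gene called, and it fell (1 of 8, against 14.8% of all genes, of which 6.38% rose and 8.45% fell). At 72 h Pde4b rose and Fshr fell (2 of 8, against 7.26% of all genes, of which 4.23% rose and 3.03% fell). A gene was called at an adjusted p below 0.05 in limma, with Benjamini-Hochberg adjustment over all probe sets. Deviations from the group means correlated at 0.179 to 0.406 between same-numbered 24 h testes and controls 1 to 3. For different numbers they correlated at -0.355 to 0.068. The labels do not give such a pairing, and 3 arrays a group are too few to establish it. With the number as a block, 2 of 8 genes, Fshr and Prkaca, were called at 24 h, against 22.5% of all genes. Being lower at all 3 times, as Fshr was, held for 1.09% of genes. The median difference over the 8 genes was -0.02, 0.02 and 0.00 log2 units at 12, 24 and 72 h, and over all genes it was 0.00, 0.04 and 0.01. Without control 6, Fshr and Prkaca were called at 12 h and Pde4b was not, and at 72 h Fshr and Pde4b were called.

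Fshr lies on chromosome 17 from 88984952 to 89200675 (GRCm38.p6) and encodes the only known receptor for FSH. Its 1 probe set, 1450810_at, read 5.23, 5.39, 5.50 and 5.52 log2 units in the 4 testes at 12 h and 4.96, 5.39, 5.68 and 5.55 at 72 h, against 6.78, 6.62, 6.39 and 6.24 in controls 4 to 7. Every FSH value at these times lay below every control of the set. The 24 h testes read 4.34, 3.88 and 4.84, against 5.86, 5.40 and 5.52 in controls 1 to 3, and again the groups did not overlap.

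The difference in Fshr was of nearly the same size at each time. Fshr fell by 1.10 ± 0.20 log2 units at 12 h (SE, 4 FSH testes against 4 controls), which is 2.14-fold lower, with a limma adjusted p of 0.00327. At 24 h it was 2.36-fold lower (-1.24 ± 0.23, SE, 3 against 3, limma adjusted p = 0.00274). At 72 h it was 2.16-fold lower (-1.11 ± 0.20, SE, 4 against 4, limma adjusted p = 0.0031). Without control 6 the differences were -1.14 at 12 h and -1.15 at 72 h, with limma adjusted p of 0.00748 and 0.00655. In whole testis, fewer Sertoli cells and less of a transcript in each Sertoli cell cannot be told apart.

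No change of Fshr between the times was called. The 72 h mean was 0.01 log2 units below the 12 h mean (95% interval -0.43 to 0.41, limma adjusted p = 0.992). The 24 h difference less the 12 h difference was -0.14, with an interval of -0.78 to 0.50, and the 72 h difference less the 24 h difference was 0.13, with an interval of -0.51 to 0.77. These intervals leave room for a change between times.

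The level of Fshr in controls depended on the array set. Controls 1 to 3 averaged 5.59 ± 0.24 (SD, n = 3) and controls 4 to 7 averaged 6.51 ± 0.24 (SD, n = 4), so that controls 1 to 3 were lower by a difference of -0.92 ± 0.21 (SE, limma adjusted p = 0.0159), and 8.84% of genes were called between the sets. This is close to the size of the FSH differences, and the choice of controls matters for that reason. Against all 7 controls without the array set, the difference was -0.70 at 12 h and -0.72 at 72 h, with limma adjusted p of 0.127 and 0.107, and it was -1.76 at 24 h (limma adjusted p = 0.000517). With the 6 unspiked arrays fitted alone, the 24 h difference of Fshr had a limma adjusted p of 0.11.

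**Figure D1:**
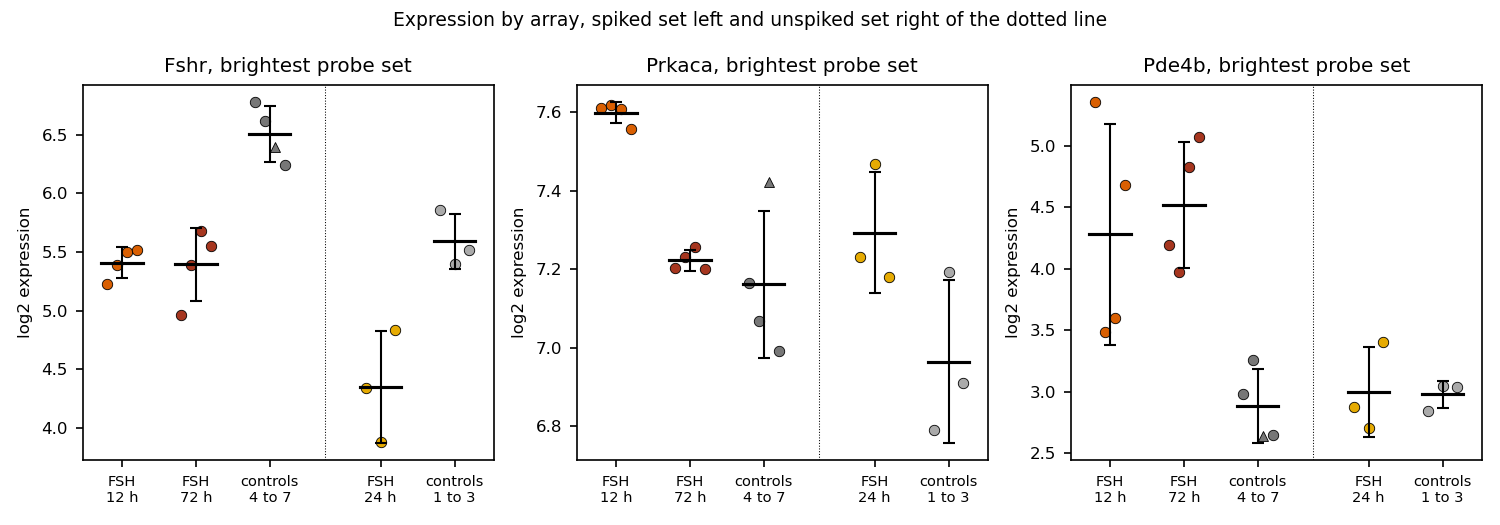
Log2 expression of Fshr, Prkaca and Pde4b on each of the 18 arrays, with the group mean and SD as bars; control 6 is a triangle, and the dotted line parts the spiked arrays (12 h, 72 h and controls 4 to 7) from the unspiked ones (24 h and controls 1 to 3). All Fshr values under FSH lie below the controls of their set, Prkaca is above its controls at 12 h in every testis, and Pde4b is above its controls at 12 h and 72 h but not at 24 h.

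Sertoli cell marker genes were called in both directions. Of 14 measured markers, 4 rose and 1 fell at 12 h, 0 rose and 2 fell at 24 h, and 2 rose and 0 fell at 72 h, against 6.28%, 14.8% and 7.26% of all genes called at these times. Without control 6 the counts were 2 and 1 at 12 h and 2 and 0 at 72 h. With the replicate block 3 fell at 24 h, among them Gata4, against 22.5% of all genes called in either direction. The mean log2 level of the 14 was 8.92 to 9.11 at 12 h and 8.84 to 8.98 at 72 h, against 8.60 to 8.95 in controls 4 to 7. At 24 h it was 8.65 to 8.95, against 8.84 to 9.15 in controls 1 to 3. Summed over the markers, the log2 values were 124.88 to 127.49 at 12 h and 123.75 to 125.75 at 72 h, against 120.43 to 125.34 in controls 4 to 7, and 121.13 to 125.30 at 24 h, against 123.71 to 128.03 in controls 1 to 3.

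The transcription factors Sox9, Wt1, Gata4 and Gata1 read 6.79 or more as group means, and none of these 4 was called without the block. Of the other transcription factors among the markers, Dmrt1 fell by 0.62 at 24 h (limma adjusted p = 0.0153). Nr5a1 differed by 0.57, -0.42 and 0.23 at 12, 24 and 72 h without a call. Sox9, which sets Sertoli cell fate, differed by -0.08, -0.21 and -0.61 log2 units at 12, 24 and 72 h (limma adjusted p of 1, 0.574 and 0.108). Wt1, which maintains that fate, differed by 0.02, -0.50 and -0.27. Gata4 and Gata1, zinc finger factors of Sertoli cells, differed by 0.21 and 0.22 at 12 h, by -0.67 and -0.09 at 24 h, and by -0.10 and -0.02 at 72 h.

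The called markers include structural and secreted proteins. At 12 h Dhh, a secreted signal to Leydig and peritubular cells, rose by 0.69, Cldn11, a tight junction protein of the blood-testis barrier, by 0.76, Vim, an intermediate filament protein, by 0.52, and Espn, an actin bundling protein, by 0.87 log2 units, while Ctsl, a lysosomal protease, changed by -0.33. At 72 h Dhh rose by 0.65 and Ctsl by 0.64. At 24 h the called markers were Dmrt1 (-0.62), a factor shared with spermatogonia, and Tjp1 (-1.07), a junction scaffold of many epithelia. Krt18, a keratin of immature Sertoli cells, was near the floor of the array at a mean of 2.80. Whether the share of Sertoli cells differed between groups was not tested.

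**Figure D2:**
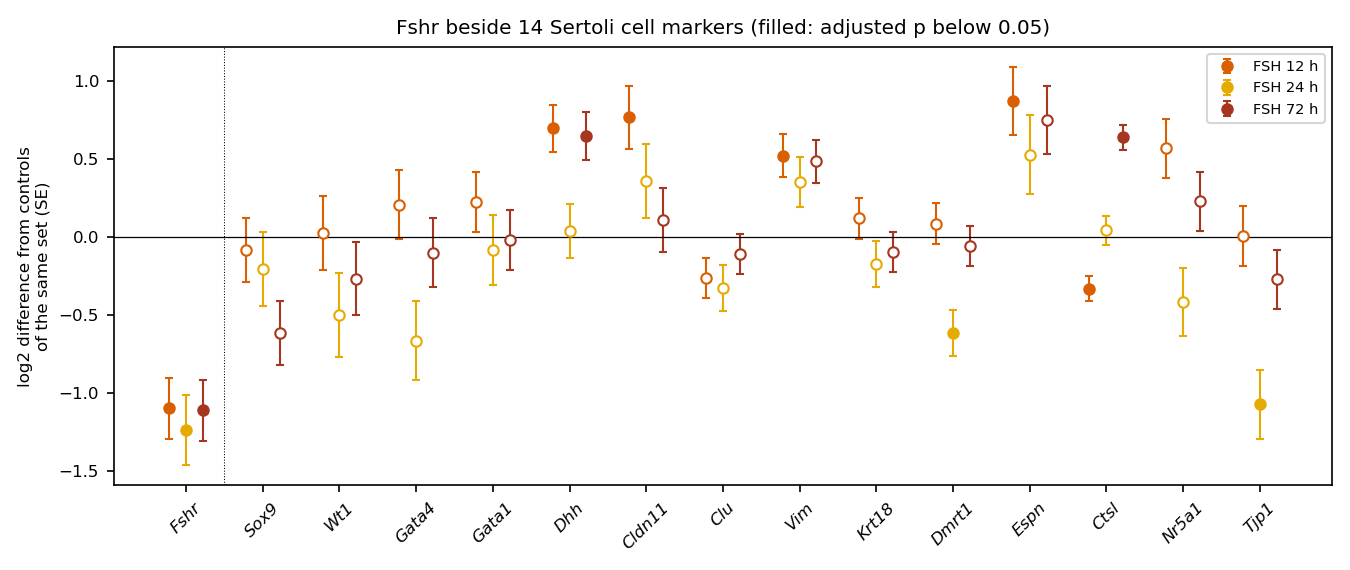
Log2 difference between FSH testes and same-set controls (SE) for Fshr and for 14 Sertoli cell marker genes at 12, 24 and 72 h of FSH; filled points have a limma adjusted p below 0.05. Fshr lies below 0 at all 3 times, while the markers lie on both sides of 0, with Dhh, Cldn11, Vim and Espn above it at 12 h and Tjp1 and Dmrt1 below it at 24 h.

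Gnas encodes the G protein subunit that couples the receptor to adenylyl cyclase, and it was the brightest of the 8 genes. It lies on chromosome 2 from 174284320 to 174346744, an imprinted locus with several overlapping transcripts. Its main probe set, 1450186_s_at, read 11.17, 11.62, 11.18 and 11.33 log2 units at 12 h and 10.85, 11.39, 11.37 and 11.47 at 72 h, against 10.96, 11.28, 11.32 and 11.00 in controls 4 to 7. The values at 24 h were 11.36, 11.41 and 11.14, against 11.55, 11.33 and 11.15 in controls 1 to 3.

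All groups overlapped for Gnas, and no difference was called. The differences were 0.18 at 12 h (95% interval -0.13 to 0.50), -0.04 at 24 h (-0.40 to 0.32) and 0.13 at 72 h (-0.19 to 0.44), with limma adjusted p of 0.706, 0.89 and 0.864. The other 3 Gnas probe sets were dim, with means of 4.62, 2.45 and 2.40, and none of them was called at any time.

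PKA is a tetramer of catalytic and regulatory subunits. Prkaca, the main catalytic subunit gene, lies on chromosome 8 from 83972978 to 83996444. Its 1 probe set, 1450519_a_at, read 7.61, 7.62, 7.61 and 7.56 log2 units at 12 h and 7.20, 7.23, 7.26 and 7.20 at 72 h, against 7.16, 7.07, 7.42 and 6.99 in controls 4 to 7. All 12 h values lay above all these controls, and the 72 h values lay among them. In the unspiked set it read 7.23, 7.47 and 7.18 at 24 h, against 6.79, 7.19 and 6.91 in controls 1 to 3, where only the lowest FSH value fell within the range of the controls.

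Prkaca rose 1.36-fold at 12 h (0.44 ± 0.09 log2 units, SE, 4 against 4, limma adjusted p = 0.0123). At 24 h its difference was 0.33 ± 0.11 and did not pass (SE, 3 against 3, 95% interval 0.09 to 0.56, limma adjusted p = 0.0607). With the replicate number as a block within the unspiked set, the limma adjusted p at 24 h was 0.0172. At 72 h the difference was 0.06 ± 0.09 (SE, 4 against 4, interval -0.14 to 0.26, limma adjusted p = 0.912).

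The 72 h values of Prkaca all lay below the 12 h values, by -0.38 ± 0.09 log2 units, with a limma adjusted p of 0.0529. Control 6 was the highest of its group for Prkaca. Without it the difference was 0.53 at 12 h and 0.15 at 72 h (limma adjusted p of 0.00252 and 0.463), the 24 h difference had a limma adjusted p of 0.0307, and the 72 h against 12 h difference had one of 0.0225. Over the 18 fits that left out 1 array each, the 72 h against 12 h difference was called in 5, with limma adjusted p from 0.0225 to 0.138, and the 24 h difference in 2, with limma adjusted p from 0.0187 to 0.235. Besides control 6, the 72 h against 12 h difference was called without 24 h testis 2 or without control 1, 2 or 7, at limma adjusted p of 0.0409, 0.0435, 0.0287 and 0.049. None of these arrays is part of that difference, which stayed at -0.38 in all these fits. Control 6 is likewise not part of the 24 h difference, which stayed at 0.33 without it. In these fits only the shared estimate of the spread and the adjustment moved, so they say nothing more about the size of either difference. The 24 h difference was also called without control 2 (0.44, limma adjusted p = 0.0187).

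Some markers of Leydig cells, the steroid-making cells between the tubules, also differed between FSH testes and controls. The mean log2 level of 8 measured Leydig markers was 7.08 to 7.39 at 12 h and 6.60 to 7.04 at 72 h, against 6.16 to 6.80 in controls 4 to 7, and 7.11 to 7.55 at 24 h, against 6.05 to 6.19 in controls 1 to 3. Star, which imports cholesterol for steroid synthesis, rose by 2.54 at 12 h and by 2.50 at 24 h and was 0.87 above its controls at 72 h without a call (limma adjusted p = 0.083). Cyp17a1 rose by 2.86 at 12 h and by 4.62 at 24 h, and Cyp11a1 by 4.03 at 24 h. Vcam1 fell by 1.13 at 12 h (limma adjusted p = 0.0187). Hsd3b1 differed by -0.21, -0.52 and -0.18 and Nr2f2 by -0.15, -0.56 and 0.03 at 12, 24 and 72 h, without a call. Hsd17b3 and Sult1e1 were near the floor of the array. Of the 8, 2 rose and 1 fell at 12 h, 3 rose and 0 fell at 24 h, and 0 were called at 72 h, against the same 6.28%, 14.8% and 7.26% of all genes. Without control 6, 2 rose and 0 fell at 12 h and 0 were called at 72 h. With the replicate block 4 rose at 24 h (22.5% of all genes called). Their part in the Prkaca result was not tested.

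Prkar1a encodes the type I regulatory subunit and lies on chromosome 11 from 109649023 to 109669663. Its main probe set, 1425550_a_at, read 9.88, 10.33, 10.39 and 10.31 log2 units at 12 h and 10.31, 10.14, 10.23 and 10.12 at 72 h, against 10.09, 10.29, 10.39 and 10.23 in controls 4 to 7. The values at 24 h were 10.64, 10.70 and 10.56, against 10.45, 10.48 and 10.69 in controls 1 to 3. The groups overlapped at each time, and the differences of -0.02, 0.10 and -0.05 at 12, 24 and 72 h were not called, with 95% intervals that lay within -0.27 to 0.35. The second probe set, 1452032_at, differed by 0.23, -0.13 and -0.01 and was not called.

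The phosphodiesterases gave the largest rise and the dimmest signal among the 8 genes. Pde4b lies on chromosome 4 from 102087332 to 102607275. Its main probe set, 1422474_at, read 5.36, 3.49, 3.60 and 4.68 log2 units at 12 h and 4.20, 3.98, 4.83 and 5.07 at 72 h, against 2.98, 3.26, 2.64 and 2.65 in controls 4 to 7. All 8 FSH values lay above all 4 controls, and the 12 h testes were widely spread. At 24 h it read 2.87, 2.71 and 3.41, against 2.85, 3.05 and 3.04 in controls 1 to 3, with the groups overlapping.

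Pde4b rose 2.64-fold at 12 h (1.40 ± 0.36 log2 units, SE, 4 against 4, limma adjusted p = 0.0378) and 3.11-fold at 72 h (1.64 ± 0.36, SE, 4 against 4, limma adjusted p = 0.0141). At 24 h the difference was 0.02 ± 0.42 (SE, 3 against 3, 95% interval -0.88 to 0.92, limma adjusted p = 0.981). The controls of both sets were dim for Pde4b. The direct tests between times did not pass. The 24 h difference less the 12 h difference was -1.38 ± 0.56 (interval -2.57 to -0.19, limma adjusted p = 0.252), and the 72 h difference less the 24 h difference was 1.62 ± 0.56 (interval 0.43 to 2.81, limma adjusted p = 0.277). The 24 h testes were also all in the unspiked set, so the time and the set cannot be told apart beyond these differences of differences.

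The 12 h call of Pde4b rested on few arrays. It was lost without 12 h testis 1 (1.04, limma adjusted p = 0.0871), without 12 h testis 4 (1.27, 0.113), and without control 4 (1.43, 0.0713), control 6 (1.32, 0.0923) or control 7 (1.32, 0.102). With the 12 spiked arrays fitted alone, its limma adjusted p at 12 h was 0.0839. The 72 h call was kept in all 18 fits that left out 1 array, with limma adjusted p between 0.00394 and 0.048, and without control 6 the difference was 1.56 (limma adjusted p = 0.0379). Only leaving out a 72 h testis or any of controls 4 to 7 could move this difference. It ran from 1.45 to 1.82. The second probe set, 1422473_at, was near the floor at a mean of 2.73 and differed by 0.25, 0.04 and 0.37 at 12, 24 and 72 h with no call. Its FSH values at 12 h and 72 h all lay above those of controls 4 to 7, but narrowly. The lowest were 2.66 at 12 h and 2.64 at 72 h, against a highest value of 2.63 in these controls. The untreated controls 1 to 3, at 2.64 to 2.74, also all lay above controls 4 to 7.

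Pde4a, on chromosome 9 from 21165700 to 21213248, was at the floor of the array. Its 1 probe set read 1.71 to 1.81 log2 units over all 18 arrays, and no difference was called.

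Creb1 and Crem encode factors that bind the cAMP response element and that PKA phosphorylates, and Crem also makes short repressors from an internal promoter. Creb1 lies on chromosome 1 from 64532794 to 64604548. Its main probe set, 1423402_at, read 5.24, 5.22, 5.03 and 5.22 log2 units at 12 h and 5.27, 5.29, 5.09 and 5.15 at 72 h, against 5.21, 5.17, 5.21 and 5.22 in controls 4 to 7. The 24 h testes read 5.33, 5.39 and 5.26, against 5.22, 5.34 and 5.61 in controls 1 to 3. The groups overlapped, and the 95% intervals of the differences at 12, 24 and 72 h reached from -0.25 to 0.16. Of the other 3 Creb1 probe sets none was called. The one with the largest difference, 1452529_a_at, differed by 0.35 ± 0.13 at 24 h (SE, 3 against 3, limma adjusted p = 0.1, and 0.032 with the replicate block), with an overlap of the groups.

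Crem had 3 probe sets, with means of 4.57, 4.52 and 2.88. The main one, 1449037_at, read 4.77, 4.62, 4.60 and 4.60 log2 units at 12 h and 4.72, 4.61, 4.16 and 4.65 at 72 h, against 4.80, 4.62, 4.55 and 4.74 in controls 4 to 7. In the unspiked set it read 4.62, 4.63 and 4.56 at 24 h, against 4.67, 3.81 and 4.63 in controls 1 to 3, where control 2 was low. Its differences of -0.03, 0.24 and -0.14 were not called, nor were those of the other probe sets. The 95% interval at 12 h was -0.38 to 0.31. The probe sets do not separate activator from repressor forms here.

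**Figure D3:**
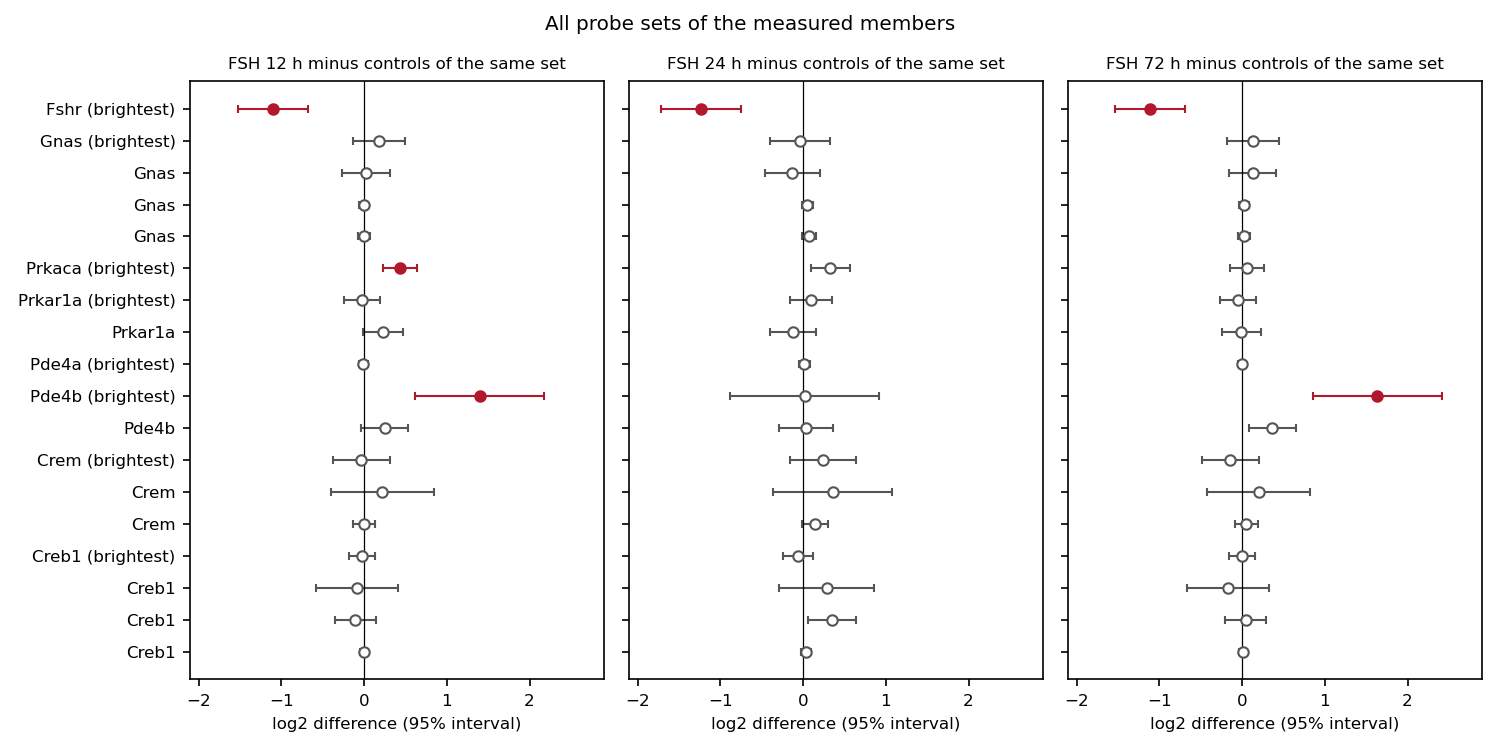
Log2 difference between FSH testes and same-set controls, with its 95% interval, for all 18 probe sets of the 8 measured genes at 12, 24 and 72 h of FSH; filled red points have a limma adjusted p below 0.05. Fshr is below 0 in each panel, Prkaca and the brightest Pde4b probe set are the called rises, and the other probe sets are not called.

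No member was called in the 3 comparisons between FSH times, in limma (0 of 8 genes each, against 2.86% of all genes for 72 h against 12 h, 0.928% for 24 h against 12 h and 0.339% for 72 h against 24 h). Of the 18 probe sets, 1, 2 and 1 had an unadjusted p below 0.05 in these comparisons.

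Other settings changed some of the calls for the 3 genes, as the plot of settings shows. The direction of each called difference was the same in all settings.

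**Figure D4:**
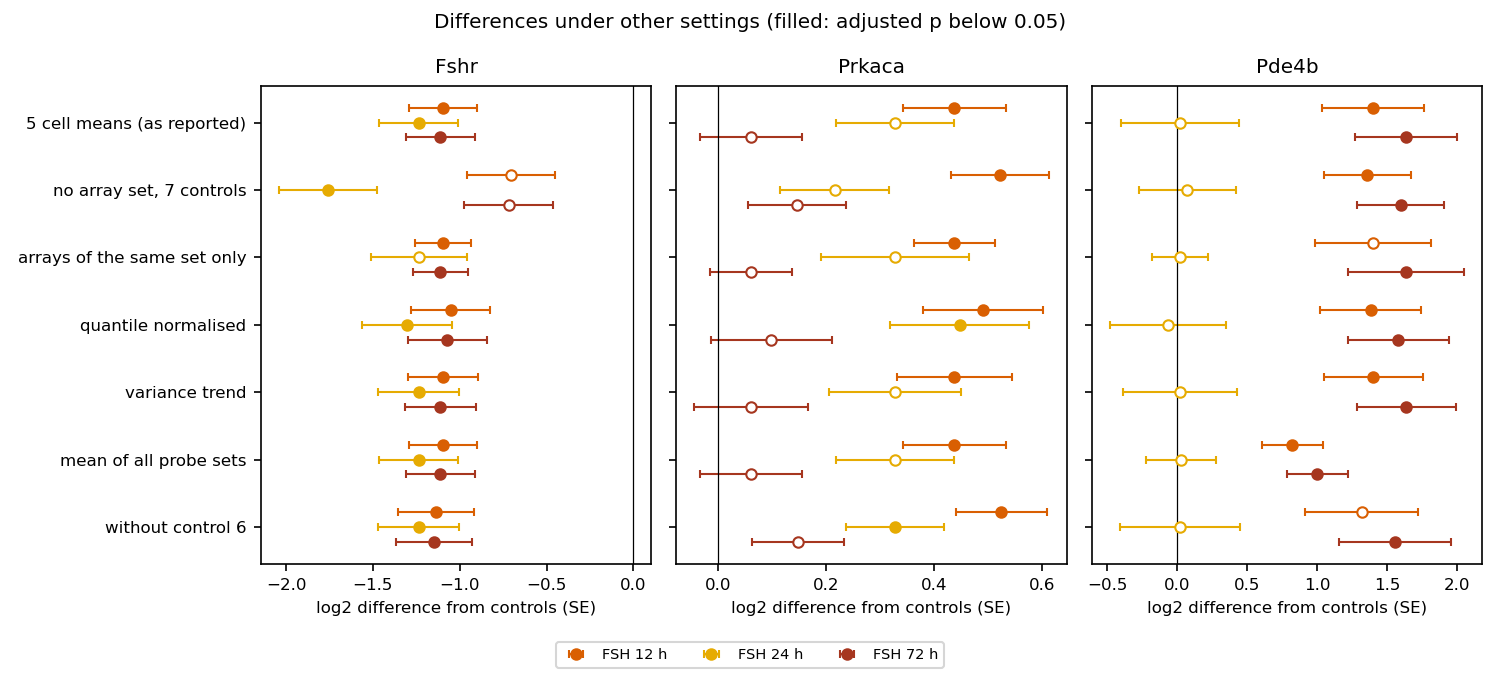
Log2 difference from controls (SE) of Fshr, Prkaca and Pde4b at 12, 24 and 72 h under 7 settings; filled points have a limma adjusted p below 0.05. Fshr lies below 0 throughout but is not called at 12 h and 72 h with all 7 controls pooled, nor at 24 h with the unspiked arrays alone, Prkaca is called at 24 h with quantile normalization and without control 6, and the 12 h call of Pde4b is lost with the spiked arrays alone and without control 6.

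The rest of the pathway was described with 10 lists of 123 genes, of which 95 were measured. At 12 h 6 rose and 1 fell (7.37% called, against 6.28% of all genes), at 24 h 5 rose and 11 fell (16.8%, against 14.8%), and at 72 h 5 rose and 2 fell (7.37%, against 7.26%). These 3 shares are near those of all genes. Without control 6 the counts were 4 and 1 at 12 h (5.26%, against 5.29% of all genes) and 4 and 5 at 72 h (9.47%, against 6.88%). With the replicate block at 24 h, 12 rose and 12 fell (25.3%, against 22.5% of all genes). The mean log2 level of 9 spermatogonium markers was 6.60 to 7.01 at 24 h, against 7.41 to 7.59 in controls 1 to 3. It was 7.021 to 7.380 at 12 h and 6.956 to 7.197 at 72 h, against 7.326 to 7.605 in controls 4 to 7. Of the 9, 1, 4 and 2 fell at 12, 24 and 72 h and 0 rose, against falls of 2.76%, 8.45% and 3.03% of all genes. The 12 h and 72 h counts were the same without control 6. With the replicate block 5 fell at 24 h (22.5% of all genes called in either direction). The part of these markers in the falls of pathway genes was not tested. Named below are the called genes of each list, up to 4 with the smallest p. Each list count is to be read beside the 6.28%, 14.8% and 7.26% of all genes called at 12, 24 and 72 h. With 6 to 18 measured genes a list, 0 or 1 call is not a result about that list.

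Among 14 G protein genes, Gng10, which encodes a gamma subunit, rose by 0.68 at 12 h and by 0.81 at 72 h (limma adjusted p of 0.0399 and 0.0126), and at 24 h its difference was 0.06. Without control 6 its 12 h difference was 0.55 (limma adjusted p = 0.11). Gng12, another gamma subunit, rose by 0.47 at 24 h and by 0.56 at 72 h (limma adjusted p of 0.0427 and 0.0131), and its second probe set differed by 0.24 and 0.48 (0.265 and 0.0333). Gnai2, an inhibitory alpha subunit that opposes the stimulatory one, rose by 0.43 at 72 h (limma adjusted p = 0.0265, and 0.0732 without control 6). Gnb4, a beta subunit, fell by 0.62 at 24 h (limma adjusted p = 0.0116), and its second probe set was not called.

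Of 7 adenylyl cyclase genes, Adcy9 fell by 1.10 at 24 h (limma adjusted p = 0.0343), and its other 2 probe sets fell by 1.01 and 0.73. Adcy8 rose by 0.22 at 24 h near the floor of the array, at a mean of 2.70. No cyclase gene was called at 12 h or 72 h. Of 6 other PKA subunit and inhibitor genes, Prkacb, the second catalytic subunit, fell by 0.74 at 24 h (7.23 ± 0.29 at 24 h and 7.98 ± 0.25 in controls 1 to 3, SD, n = 3 each, limma adjusted p = 0.0151). Its second probe set was dim and differed by -0.14 (limma adjusted p = 0.807). At 12 h and 72 h none of the 6 was called.

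Akap8l, a nuclear relative of the PKA anchoring proteins, fell at all 3 times. It read 6.93, 7.14, 6.90 and 7.17 log2 units at 12 h and 7.22, 7.34, 7.06 and 7.07 at 72 h, against 7.76, 7.83, 8.13 and 8.17 in controls 4 to 7. At 24 h it read 6.13, 6.70 and 6.63, against 7.51, 7.84 and 7.44 in controls 1 to 3. Akap8l fell by 0.94, 1.11 and 0.80 at 12, 24 and 72 h, with limma adjusted p of 0.00073, 0.000479 and 0.00245, and the groups did not overlap at any time. It was the only one of 10 anchoring protein genes called.

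None of the 9 other cAMP phosphodiesterase genes was called at any time, in limma. With the replicate block at 24 h Pde3a and Pde7b, both named after their values were seen, were called at differences of 0.29 and 0.12, and without control 6 Pde2a was called at 72 h. Of the 6 genes for cAMP-activated exchange factors and their target, Rap1a, a small GTPase, rose by 0.77 at 24 h (limma adjusted p = 0.00847), and its second probe set differed by 0.41 (0.242). Of the 6 receptor kinase and arrestin genes, Grk5, which phosphorylates activated receptors, fell by 0.80 at 24 h (limma adjusted p = 0.0346). Arrb1, an arrestin gene named after its values were seen, differed by -1.07 at 24 h without a call (limma adjusted p = 0.0505). With the replicate block it was called (limma adjusted p = 0.00796). Of the 8 genes for other glycoprotein hormone subunits and related receptors, Rxfp2 was called at 24 h at a difference of 0.11 near the floor. The mean log2 level of these 8 genes was 2.39 to 2.53 at 24 h, against 2.28 to 2.35 in controls 1 to 3. Such levels are near the floor of the array. With the replicate block at 24 h Tshb and Tshr were also called, at differences of 0.26 and 0.23. So were Prkar2a and Gnaq, of the PKA and G protein lists, at 0.15 and 0.165. These were likewise named after their values were seen. Fshb and Cga, the subunit genes of FSH, were near the floor and differed by between -0.03 and 0.01.

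Among 11 genes of the CREB family and its coactivators, Creb3, which encodes a factor held in the endoplasmic reticulum membrane, rose by 0.57 at 12 h and by 0.48 at 72 h (limma adjusted p of 0.015 and 0.0366). Of its other 3 probe sets, 2 also rose at both times and the dim one was not called. Atf2, a stress-activated relative of CREB, fell by 0.77 at 24 h (limma adjusted p = 0.00529). Its other 3 probe sets were not called and differed by -0.69, -0.47 and 0.01 at 24 h (limma adjusted p of 0.0637, 0.287 and 0.986). Creb3l2 fell by 1.68 and Crebzf by 0.73 at 24 h (limma adjusted p of 0.0468 and 0.0308). The other probe sets of both were not called, with differences of -0.11 for Creb3l2 (limma adjusted p = 0.652) and of -0.27 and 0.00 for Crebzf (0.0657 and 0.931). The 24 h mean of Creb3l2 was 5.07 ± 1.20, against 6.74 ± 0.73 in controls 1 to 3 (SD, n = 3 each).

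The 18 measured genes known as targets of the cAMP response element gave 4 rises and 0 falls at 12 h, 1 rise and 3 falls at 24 h, and 1 rise and 1 fall at 72 h. Among all genes the share of rises was 3.52%, 6.38% and 4.23% and the share of falls 2.76%, 8.45% and 3.03% at 12, 24 and 72 h. Without control 6 the list counts were 3 and 0 at 12 h and 1 and 2 at 72 h, and with the replicate block at 24 h they were 2 and 3. The list median was 0.06, 0.05 and 0.02 log2 units, close to that of all genes. Inha, the alpha subunit of inhibin by which Sertoli cells restrain pituitary FSH, rose at all 3 times. It read 11.57, 11.97, 11.89 and 12.04 at 12 h and 11.99, 11.99, 11.91 and 11.87 at 72 h, against 9.98, 10.31, 9.81 and 9.88 in controls 4 to 7. At 24 h it read 11.94, 12.05 and 11.70, against 10.05, 10.20 and 10.19 in controls 1 to 3. The rises of Inha were 1.87, 1.75 and 1.94 log2 units, with limma adjusted p of 6.6e-07, 2.48e-06 and 3.79e-07.

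Nr4a1, an orphan nuclear receptor induced early by cAMP, rose at 12 h. It read 6.29, 6.53, 7.43 and 6.79 at 12 h and 5.22, 5.25, 5.54 and 5.34 at 72 h, against 5.19, 4.65, 5.09 and 4.70 in controls 4 to 7. Its rise at 12 h was 1.85 ± 0.27 (SE, 4 against 4, limma adjusted p = 0.000736), and the 72 h level was below the 12 h level by a difference of -1.42 (limma adjusted p = 0.012). At 24 h and 72 h the differences of 0.27 and 0.43 were not called. Per1, a circadian clock gene with a known cAMP response element, rose by 0.74 at 12 h (limma adjusted p = 0.0037) and differed by 0.46 and 0.40 at 24 h and 72 h without a call (with the replicate block at 24 h, limma adjusted p = 0.0487).

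Egr1, a zinc finger factor induced by many growth signals, fell at 24 h and 72 h. It read 5.28, 5.30 and 5.17 at 24 h, against 7.88, 7.75 and 7.08 in controls 1 to 3, a fall of 2.32 (limma adjusted p = 6.87e-05). At 72 h it fell by 1.11 (limma adjusted p = 0.00814), and at 12 h its difference was -0.19. Fos, Dusp1 and Ccnd1 were chosen after their values were seen, since they complete the counts above. Fos rose by 1.49 at 12 h (limma adjusted p = 0.0432, and 0.1 without control 6), while at 24 h Dusp1 fell by 1.22 and Ccnd1 by 1.23.

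**Figure D5:**
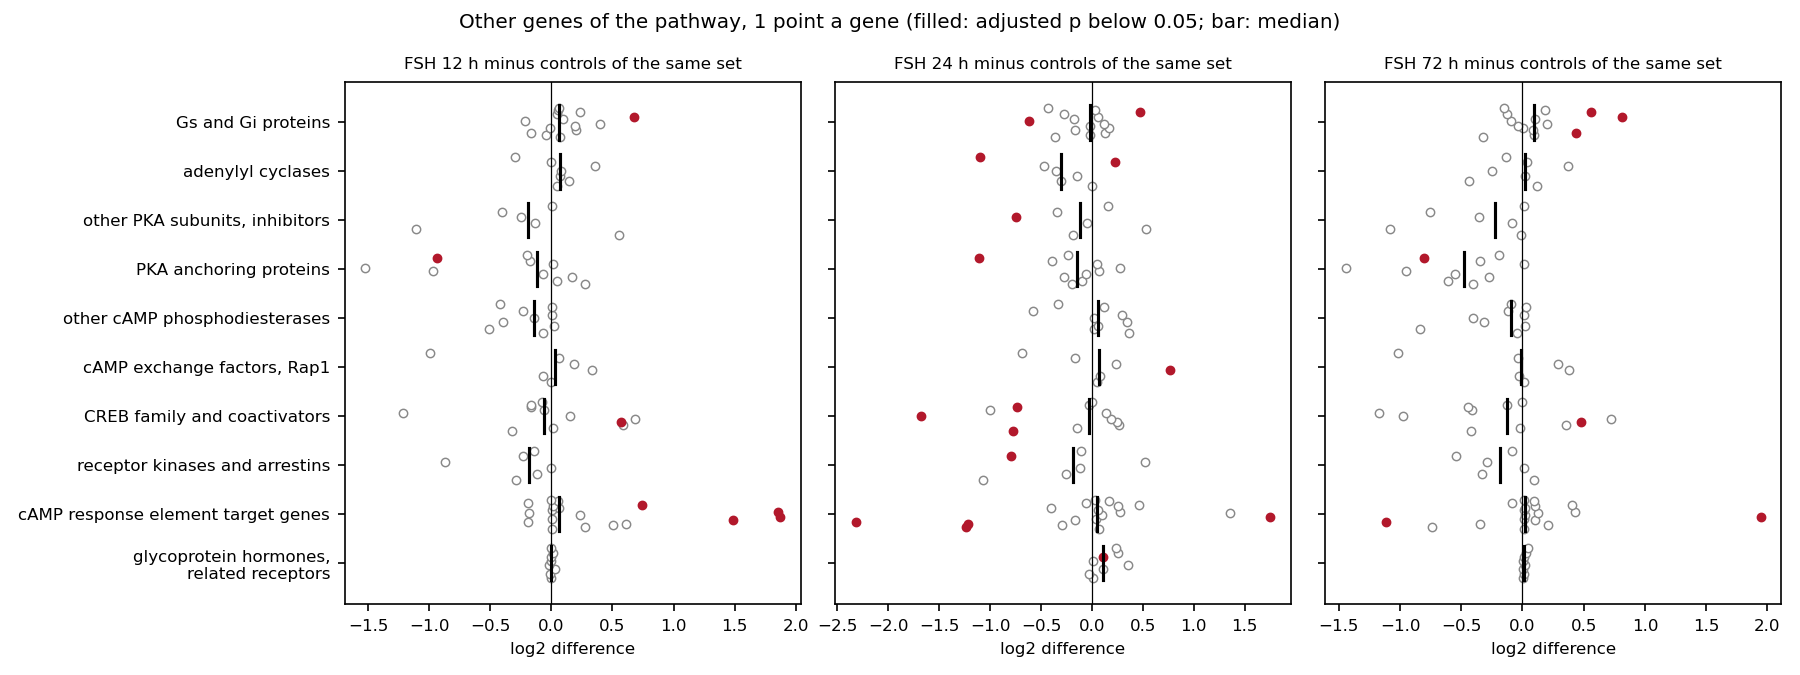
Log2 difference between FSH testes and same-set controls at 12, 24 and 72 h of FSH for 95 other genes of the pathway, 1 point a gene, grouped in 10 lists; filled points have a limma adjusted p below 0.05 and the black bar is the list median. Most points are open and lie around 0, and the largest called differences are those of Inha and Nr4a1 above 0 and of Egr1 below it.

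The genes most like Fshr, Prkaca and Pde4b were found by Pearson's r over the 18 arrays, on log2 values less the control mean of the same set, among genes with a mean of at least 5. The arrays share their groups and sets, so the r values describe these arrays only. For Fshr the highest were Ablim1 (0.928), Fbxl20 (0.927) and Ctnna2 (0.915), and the lowest were Bex2 (-0.948), Kmt5a (-0.944) and Xpnpep1 (-0.930). Ctnna2, a catenin that links cadherins to actin, differed by -1.88, -1.86 and -1.82 log2 units at 12, 24 and 72 h, and Bex2 by 1.66, 1.39 and 1.60.

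For Prkaca the highest were Tspan5 (0.924), Phgdh (0.858) and Slc46a1 (0.837), and the lowest were Map1lc3b (-0.879), Mpeg1 (-0.858) and N4bp2l1 (-0.853). Phgdh, the first enzyme of serine synthesis from glycolysis, differed by 0.90, 0.51 and 0.28 log2 units at 12, 24 and 72 h. For Pde4b the highest were Gng10 (0.854), Arpp19 (0.846) and Pfkfb3 (0.840), and the lowest were Foxp1 (-0.844), Ensa (-0.831) and Ddx51 (-0.824). Pfkfb3, which sets the glycolytic regulator fructose 2,6-bisphosphate, differed by 0.87, 0.03 and 1.09, and Foxp1, a forkhead repressor, by -0.90, -0.25 and -1.29.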

How the data were processed

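Biotin-labelled cRNA from 8 micrograms of total RNA per testis was hybridised to Affymetrix MOE430A arrays, per the labels' protocols. The authors deposited 1 table of expression values, taken here as log2 from their range of 1.04 to 15.2. RMA and GCRMA are named in the submitters' processing notes, and which of them made the table is not given in the sources used here. Dim transcripts lie near a floor in such values. For arrays, their number limits the precision. No 2 arrays were duplicates (highest correlation 0.997).

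Of 22690 probe sets, 64 controls were left out and 22626 were tested without a filter. GEO's platform annotation gave 20380 of them 1 symbol, 691 several and 1555 none, and 20351 symbols were found in a current gene table. limma 3.58.1 in R 4.3.3 (lmFit, eBayes, two-sided, 13 residual degrees of freedom) was fitted with 5 means over all 18 arrays: 12 h, 24 h, 72 h, controls 1 to 3 and controls 4 to 7. The array sets were defined by the Dap signal, above or below 6. The Benjamini-Hochberg adjustment ran over all probe sets, and calls needed an adjusted p below 0.05. The fit was tested on simulated data.

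The members, gene lists, marker lists and array sets were chosen with earlier results of these data known. Members were named whatever their values, and from each pathway list up to 4 called genes with the smallest p. Same-numbered 24 h testes and controls 1 to 3 correlated at 0.179, 0.343 and 0.406 in their deviations from the group means, and differently numbered ones at -0.355 to 0.068. Deviations within a group sum to 0, so with 3 arrays a group these values are tied and do not establish a pairing. The number was used as a block there in a side fit, from the data and not from the labels. All 24 h differences and calls come from the fit without a block unless the block is named. Same-numbered 12 h and 72 h testes correlated at 0.107, 0.130, 0.013 and 0.068, and were not treated as paired. Alternatives were pooled controls, each set alone, quantile normalization, a minimum mean of 5, a variance trend, the mean of a gene's probe sets, the replicate number as a block, and leaving out each array. The block in the unspiked set alone and the list counts without control 6 were chosen after seeing the data. RefSeq promoters were searched on both strands over 250 bases.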

Additional observations from a re-analysis of the deposited data

Results flagged for a closer look

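In groups of 4 arrays, 78 were examined for 1 array far from the others, by the gap to its nearest neighbour over the whole range of the group, and 7 had one. Chance gives about 1 in 20 such groups, and the groups are not independent, since genes share arrays.

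The gap was 0.838 of the range for the main Gnas probe set at 72 h, where testis 1 read 10.85 and the others 11.37 to 11.47. At 12 h it was 0.848 for the main Prkar1a probe set (testis 1 at 9.88, others 10.31 to 10.39) and 0.922 for the main Creb1 probe set (testis 3 at 5.03, others 5.22 to 5.24). It was 0.882 for the main Crem probe set (testis 1 at 4.77, others 4.60 to 4.62), 0.915 for the dim Crem probe set 1430598_at (testis 1 at 2.89, others 2.78 to 2.79) and 0.908 for the dim Gnas probe set 1453413_at (testis 4 at 4.73, others 4.53 to 4.55). None of these probe sets was called at 12 h or 72 h.

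The mean of the spermatid markers had a gap of 0.932 in controls 4 to 7, where control 6 read 10.44 and the others 2.89 to 3.40. Without control 6 the Fshr and Prkaca calls at 12 h and the Fshr and Pde4b calls at 72 h remained, and that of Pde4b at 12 h was lost.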

How the results depend on the processing

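Of 1323 values recomputed under other settings, 1271 stayed on the same side of the threshold or close in value, 14 lost and 19 gained a call, 19 counts of members moved and 0 reversed. Against all 7 controls without the array set, 1 member was called at 72 h, 4 for 24 h against 12 h and 3 for 72 h against 24 h. With arrays of the same set only, 0 were called at 24 h and 1 for 72 h against 12 h. Quantile normalization gave 2 at 24 h, and a minimum mean of 5, which left 5 members and removed Pde4b, gave 1 at 72 h. The replicate block over all arrays (7 residual degrees of freedom) gave 0 at 12 h, 2 at 24 h, 0 at 72 h and 1 for 72 h against 12 h, and the replicate block in the unspiked set gave 2 at 24 h. The block in the unspiked set changed the call of no main probe set of a member other than Prkaca. Leaving out each array in turn gave 2 to 3 at 12 h, 1 to 2 at 24 h, 2 to 2 at 72 h and 0 to 1 for 72 h against 12 h.

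Over all probe sets, 3023 were called at 24 h, against 8137 without the array set (5283 higher and 2854 lower, in place of 1381 and 1642), 393 with the unspiked set alone and 4827 with its block. With the minimum mean of 5, which left 10548 probe sets, 718 were higher and 1641 lower at 24 h. Leaving out 1 array gave 1678 at 24 h without control 1, and 290, 328 and 309 in place of 535 for 72 h against 12 h without 12 h testis 3, 12 h testis 4 and 72 h testis 2. The replicate block gave 255 in place of 1211 at 12 h, 244 in place of 1388 at 72 h and 324 in place of 535 for 72 h against 12 h. In that fit, where the 12 h and 72 h testes share only number 4 with controls 4 to 7, the differences of Fshr were -1.24 at 12 h and -1.26 at 72 h, those of Pde4b 1.77 and 2.01, and that of Prkaca 0.40 at 12 h. For 24 h against 12 h, 198 became 9098 without the array set and 52 with the block, and leaving out 1 array gave from 94 (12 h testis 4) to 756 (24 h testis 1). For 72 h against 24 h, 84 became 7001 without the array set, 43 with the block and 35 with the minimum mean, and leaving out 1 array gave from 46 (72 h testis 3) to 399 (24 h testis 1). The causes were not tested. With 3 or 4 testes a group, and Pde4a at the floor of the array, small changes could not be seen.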
